A study of Mus musculus with 9 samples.

Results

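The genes described here build the ribosome. They encode factors of ribosome assembly in the nucleolus, with subunits and a cofactor of RNA polymerase I. They were taken by name from a list of 52 mouse gene symbols, which was chosen with earlier results of these data known. Of these, 51 are rows of the count table and 1, Riok2, is not analysed here. All 51 passed the filter on low counts, among 16426 genes tested of 47480 gene names. The 9 RNA sequencing libraries come from primary hematopoietic cells of C57BL/6 mice with no genetic change named in the labels. LSK cells, labelled as stem cells, lack lineage markers and carry Sca-1 and Kit on their surface, and the cells named MP are progenitors by their label, which gives no long form of the name. All cells were held in 100 ug/ml cycloheximide for 10 min, which stops ribosomes on their messages. Total RNA was taken from the lysate, and polysomal RNA from fraction 7 of 10 of a sucrose gradient, so messages in other polysome fractions were not sampled. MP polysomal RNA has 3 libraries, and each of the other groups, LSK total, LSK polysomal and MP total RNA, has 2. Nothing in the labels says that libraries of a group came from separate animals, so the p-values rest on a spread between libraries that may be technical only, and ages and sexes are not given. In sorted cells sequenced in bulk, fewer cells of a type and less RNA per cell cannot be told apart.

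Ribosomes are made in the nucleolus, where RNA polymerase I transcribes a long precursor of the ribosomal RNAs. Small nucleolar ribonucleoproteins (snoRNPs) of the box C/D and H/ACA families guide the methylation and pseudouridylation of that precursor. A large particle, the small-subunit processome, forms on its 5′ part, while other factors fold and trim the part that becomes the large subunit. Late factors then finish each subunit in the cytoplasm. In blood, some of these genes are known from inherited marrow failure: SBDS is mutated in Shwachman-Diamond syndrome, and DKC1, NHP2 and NOP10 in dyskeratosis congenita. Many ribosome assembly genes are known targets of the transcription factor Myc, which binds E-boxes.

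The promoters are shown first, because many of the genes are known to be regulated together. Whether the motifs go with the levels given below was not tested. RefSeq promoters (GRCm38.p6) matched 43 of the 51 symbols as windows of 300 bases, 250 before and 50 after the annotated start. The E-box CACGTG, which reads the same on both strands, was in the window of 8 of these 43 genes (18.6%), of 6 of 59 ribosomal protein genes (10.2%) and of 8.91% of 17491 protein-coding genes. The ETS-type motif CCGGAAGT, on either strand, was in 12 of 43 (27.9%), 12 of 59 (20.3%) and 5.69%. By their letters these motifs cannot overlap each other. Tsr1 and Ltv1 held both. The windows below run from 100 bases before the start to 30 bases from it on, with the motif in capitals. Each window shown holds a motif, and 1 holds both. Nop58, Nol8, Mrto4, Ncl and Rrp9, which are also named in the results below, held neither motif and are not shown.
Heatr1 (ETS-type, chr13:12395275-12395404, plus strand): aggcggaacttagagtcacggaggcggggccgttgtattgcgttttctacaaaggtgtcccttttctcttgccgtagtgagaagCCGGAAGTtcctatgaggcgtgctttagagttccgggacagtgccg
Gar1 (ETS-type on the opposite strand, chr3:129831367-129831496, minus strand): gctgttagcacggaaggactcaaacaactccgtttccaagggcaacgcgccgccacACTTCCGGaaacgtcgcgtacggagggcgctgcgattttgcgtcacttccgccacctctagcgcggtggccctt
Nop2 (E-box, chr6:125131783-125131912, plus strand): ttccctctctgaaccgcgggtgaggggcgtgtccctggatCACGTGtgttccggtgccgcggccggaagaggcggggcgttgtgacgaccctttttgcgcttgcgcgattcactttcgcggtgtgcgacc
Wdr43 (E-box, chr17:71616115-71616244, plus strand): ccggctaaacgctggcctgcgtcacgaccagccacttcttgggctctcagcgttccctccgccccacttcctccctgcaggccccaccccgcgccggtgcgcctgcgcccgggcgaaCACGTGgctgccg
Tsr1 (ETS-type, then E-box, chr11:74897980-74898109, plus strand): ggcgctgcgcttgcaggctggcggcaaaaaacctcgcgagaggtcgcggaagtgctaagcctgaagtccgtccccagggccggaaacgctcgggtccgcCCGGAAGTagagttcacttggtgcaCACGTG
The motif begins 16 bases before the start in Heatr1 and 44 in Gar1, and the E-box 60 bases before it in Nop2, at base 18 from it in Wdr43 and at base 25 in Tsr1. The motif TGACGTCA was in 1 of 43 windows, that of Noc4l (2.33%, against 2.54% of protein-coding genes), and the motif of NRF1 in 1, that of Pno1, which also holds an E-box (2.33%, against 1.47%), each searched on both strands. A start with a C followed by 4 pyrimidines, the mark of terminal oligopyrimidine messages, was annotated for 2 of 43 genes (4.65%), Nol11 and Utp3, for 13 of 59 ribosomal protein genes (22%) and for 2.67% of protein-coding genes. A match is a string in a window and not a measured binding site. The search for a pyrimidine start depends on the exact annotated base, and starts used in these cells were not measured. Its low shares therefore do not show that such messages are few.

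Several of these genes also carry snoRNAs in their introns. By the GENCODE M21 annotation of GRCm38, 7 of the 51 (13.7%) hold annotated snoRNA genes on their own strand, against 254 of 21853 protein-coding genes (1.16%). They are Ncl, Nop56, Nop58, Dkc1, Gnl3, Tsr1 and Wdr43. Nop56, a core protein of box C/D snoRNPs, holds 5, among them Snord57 and Snord110. Nop58, its partner, holds 4, with Snord11 and Snord70, and Gnl3 holds Snord19 and Snord69. Coding lengths ranged from 192 bases in Nop10 to 8367 in Utp20, with a median of 1902 against 1158 over all protein-coding genes, and the GC content of the coding sequence from 40.5% in Nop58 to 64.2% in Rrs1. Exons of 21 of the 51 overlap a gene on the opposite strand, and the strand setting of the counting is not given, so reads of these partners may be included.

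The libraries held 27342343 to 34807735 counts, of which the 51 genes took 0.581% to 1.24%. The defining markers were in place. The summed level of 6 stem cell markers was 647 to 1092 CPM in LSK and 42.3 to 63.8 CPM in MP libraries, and that of 5 erythroid markers 374 to 710 and 3839 to 6312 CPM. Granulocyte and monocyte progenitor genes (5 of 5 in the table) summed to 4760 to 11790 CPM in LSK and 30730 to 55060 CPM in MP. Markers of other cells were present: 6 B cell genes at 597 to 4270 CPM in LSK and 154 to 356 CPM in MP, with Ms4a1 at 0 in LSK polysomal 2, and 6 genes of maturing neutrophils at 412 to 2267 CPM in LSK. The neutrophil genes stood at 13630 CPM in MP total 1 and 16660 CPM in MP polysomal 1, and at 487 to 977 CPM in the other 3 MP libraries. Macrophage genes (5 of 5) summed to 6.21 to 15.1 CPM in LSK total, 78.2 to 85.8 in LSK polysomal, 76.4 to 179 in total RNA of MP and 231 to 469 CPM in its polysomal RNA. Of 5 T and NK cell genes, which summed to 354 to 613 CPM in LSK and 490.5 to 972 CPM in MP, at least 1 of Cd3e, Cd3g and Cd8a was at 0 in 6 of 9 libraries. The part of such cells in the results below was not tested.

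The assembly genes did not stand at 1 level in the libraries of a group. As a summary of each library, the difference of log2(CPM + 0.5) from the gene's mean over the 9 libraries was taken, and its median over the 51 genes. This was −0.08 and −0.56 in LSK total 1 and 2, and 0.10 and −0.95 in LSK polysomal 1 and 2. It was 0.12 and −0.12 in MP total 1 and 2, and 0.69, 0.77 and 0.28 in MP polysomal 1, 2 and 3. The 3 MP polysomal libraries were the highest of the 9, and the LSK libraries numbered 2 the lowest. For 79 ribosomal protein genes the same measure was 0.43, 0.42 and 0.81 in LSK total 2, MP total 1 and MP total 2, and −0.81 in MP polysomal 3, so the libraries in which these genes stood highest were others than those of the assembly genes. The medians of 133 other assembly genes, which are described further below, ran from −0.40 in LSK total 2 to 0.50 in MP polysomal 2.

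**Figure D1:**
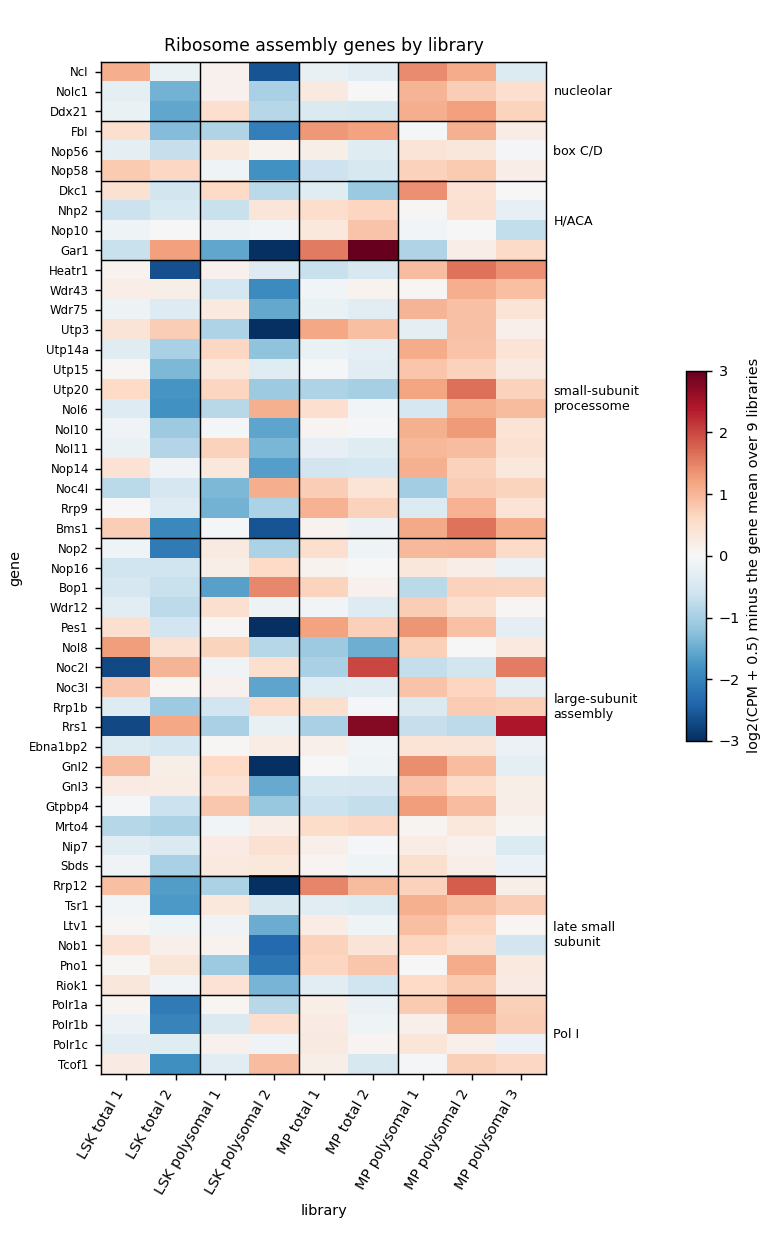
Each row is a gene, grouped by role, and each column a library. Colour gives log2(CPM + 0.5) minus the gene's mean over the 9 libraries, from −3 (blue) to 3 (red), with values beyond shown at the end of the scale. The MP polysomal columns are mostly red, with medians of 0.69, 0.77 and 0.28, and LSK polysomal 2 is mostly blue, with a median of −0.95 but with Bop1, Nol6, Noc4l and Tcof1 in red.

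Levels below are in CPM, counts scaled to a common library size with factors from the trimmed mean of M-values, in the order of the library numbers. Per kilobase of merged exons, the highest mean levels over the 9 libraries were those of Nop10 (221 CPM per kb) and Nhp2 (195 CPM per kb), small proteins of the H/ACA particle, and of Nop56 (131 CPM per kb), and the lowest was that of Nol8 (2.75 CPM per kb). Ncl encodes nucleolin, an abundant RNA-binding phosphoprotein of the nucleolus. It stood at 1448 and 600.5 CPM in LSK total RNA, 746 and 113 in LSK polysomal RNA, 587 and 550.4 in MP total RNA and 1839, 1489 and 511 in MP polysomal RNA. Libraries of a group lay far apart for Ncl except in MP total RNA, and LSK polysomal 2 was the lowest. Nolc1, a nucleolar phosphoprotein that binds snoRNPs, was at 317 and 146 CPM in LSK total RNA, 431 and 200.0 in LSK polysomal RNA, 475 and 389 in MP total RNA and 798, 657 and 552 in MP polysomal RNA. Its 3 MP polysomal libraries were the highest of the 9. Ddx21, a nucleolar RNA helicase, likewise had its highest level in MP polysomal 2, at 458 CPM, and its lowest in LSK total 2, at 66.0 CPM.

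Of the box C/D proteins, Fbl encodes fibrillarin, the methyltransferase of the particle. It was at 131 and 37.6 CPM in LSK total RNA, 49.1 and 22.1 in LSK polysomal RNA, 231 and 213 in MP total RNA and 90.4, 194 and 108 in MP polysomal RNA. MP total RNA was above the other 7 libraries, and LSK polysomal 2 was the lowest. Nop56 was the steadiest of the 3, at 438 and 327 CPM in LSK total RNA, 656 and 566 in LSK polysomal RNA, 595 and 409 in MP total RNA and 689.8, 663 and 505 in MP polysomal RNA, and its groups overlapped between populations in polysomal RNA. Nop58 was at 362 and 319 CPM in LSK total RNA, 190.2 and 58.3 in LSK polysomal RNA, 134 and 148 in MP total RNA and 336, 357 and 238 in MP polysomal RNA. Both LSK total libraries of Nop58 were above both of MP, and all 3 MP polysomal libraries above both of LSK.

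Among H/ACA proteins, Dkc1 encodes dyskerin, the pseudouridine synthase. It was at 329 and 163 CPM in LSK total RNA, 360.3 and 136 in LSK polysomal RNA, 185 and 109 in MP total RNA and 622, 323 and 236 in MP polysomal RNA. In total RNA its populations overlapped, and MP total 2 was the lowest library. Nop10 was at 216 and 235 CPM in LSK total RNA, 211 and 224 in LSK polysomal RNA, 294 and 430.2 in MP total RNA and 222, 235 and 141 in MP polysomal RNA. Its MP total libraries were the highest and MP polysomal 3 the lowest. Gar1 differed widely between libraries of 1 group. It was at 11.2 and 43.0 CPM in LSK total RNA, 5.78 and 0.706 in LSK polysomal RNA, 54.2 and 205 in MP total RNA and 9.43, 20.5 and 26.8 in MP polysomal RNA. The polysomal libraries lay below the total RNA libraries of their own population for this gene, and MP total 2 alone held about 205 CPM. Nhp2, the fourth protein of the particle, had 136 and 154 CPM in LSK total and 304 and 330.3 CPM in MP total RNA.

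The small-subunit processome is represented by 14 genes. Heatr1, a large scaffold protein that is also needed for transcription by RNA polymerase I, stood at 243 and 36.4 CPM in LSK total RNA, 251 and 173 in LSK polysomal RNA, 144 and 162 in MP total RNA and 431, 706 and 593 in MP polysomal RNA. All 3 MP polysomal libraries were above the other 6. Utp20, another very large scaffold, was at 122 and 23.3 CPM in LSK total RNA, 127 and 37.9 in LSK polysomal RNA, 42.5 and 39.9 in MP total RNA and 183, 256 and 129.9 in MP polysomal RNA, with the same 3 libraries highest. Utp3 was at 58.6 and 76.0 CPM in LSK total RNA, 23.7 and 5.07 in LSK polysomal RNA, 101 and 85.0 in MP total RNA and 37.0, 83.8 and 50.4 in MP polysomal RNA, and LSK polysomal RNA was below all other libraries. Bms1, a GTPase of the particle, was at 153 and 23.5 CPM in LSK total RNA, 87.8 and 14.7 in LSK polysomal RNA, 98.4 and 80.6 in MP total RNA and 200.1, 281 and 198 in MP polysomal RNA. Its lowest values were those of the LSK libraries numbered 2. The libraries in which a gene was low were not the same for all: Nol6 was at 155 and 57.6 CPM in LSK total RNA, 115 and 429 in LSK polysomal RNA, 288 and 192 in MP total RNA and 143, 428 and 396 in MP polysomal RNA. Noc4l was at 71.5 and 88.3 CPM in LSK total RNA, 49.1 and 269 in LSK polysomal RNA, 209 and 167 in MP total RNA and 60.9, 213 and 200.4 in MP polysomal RNA, and like Nol6 had its highest level in LSK polysomal 2.

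Large-subunit assembly has 17 genes. Pes1 and Bop1 encode partners in the PeBoW complex, which acts in the processing of the large-subunit RNA. Pes1 was at 218 and 105 CPM in LSK total RNA, 161 and 10.7 in LSK polysomal RNA, 362 and 258 in MP total RNA and 393, 286 and 127 in MP polysomal RNA, and Bop1 at 142 and 127 CPM in LSK total RNA, 65.6 and 547 in LSK polysomal RNA, 322 and 222 in MP total RNA and 115, 325 and 324 in MP polysomal RNA. In LSK polysomal 2 the pair went apart, with Pes1 at its lowest and Bop1 at its highest level of the 9 libraries. Coding GC content is 52.8% in Pes1 and 58.6% in Bop1. Over 12787 genes, the deviations in that library correlated with coding GC content at 0.483, and over the 51 genes at 0.286. Genes of high GC content went both ways there. Nol6 (57.8%) and Noc4l (56.8%) had their highest level in LSK polysomal 2, and Fbl (57.5%) and Rrp12 (56.4%) their lowest. The part of base composition was not tested. Wdr12, the other member of the PeBoW complex, had 369.5 and 236 CPM in LSK polysomal RNA. Gnl3, which encodes nucleostemin, was at 169 and 168 CPM in LSK total RNA, 194 and 50.0 in LSK polysomal RNA, 103 and 100.5 in MP total RNA and 261, 210.2 and 162 in MP polysomal RNA. Sbds, which helps to release the anti-association factor from the new large subunit, was at 91.4 and 49.5 CPM in LSK total RNA, 120.1 and 123 in LSK polysomal RNA, 104 and 89.9 in MP total RNA and 137, 113 and 87.5 in MP polysomal RNA. In Sbds the populations overlapped in both fractions, and LSK polysomal RNA lay above LSK total RNA. Rrs1, an intronless gene, and Noc2l were high in the same 3 libraries: Rrs1 had 61.4 CPM in LSK total 2, 187 in MP total 2 and 149.6 in MP polysomal 3, while the other 6 held 3.79 to 23.4 CPM. Nip7, a factor of large-subunit RNA processing, was at 115 and 107 CPM in LSK total RNA, 172 and 199 in LSK polysomal RNA, 162 and 143 in MP total RNA and 169.6, 159 and 109.9 in MP polysomal RNA. Nop16 was at 127 and 128 CPM in LSK total RNA, 219 and 294 in LSK polysomal RNA, 208 and 192 in MP total RNA and 244, 223 and 171 in MP polysomal RNA. In both genes LSK polysomal 2 was the highest library. Nol8 had 33.8 and 11.3 CPM in LSK polysomal and 35.0, 21.3 and 25.9 CPM in MP polysomal RNA, so these groups overlapped.

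Of the late small-subunit factors, Nob1 is the endonuclease that makes the final cut in the small-subunit RNA, and Pno1 its partner. Nob1 was at 146 and 120.5 CPM in LSK total RNA, 116 and 20.9 in LSK polysomal RNA, 174 and 140.0 in MP total RNA and 169.5, 150.0 and 73.0 in MP polysomal RNA. Pno1 was at 72.4 and 91.1 CPM in LSK total RNA, 33.2 and 15.4 in LSK polysomal RNA, 111 and 128 in MP total RNA and 70.8, 155 and 86.5 in MP polysomal RNA. Both were lowest in LSK polysomal 2. Ltv1, a pre-ribosome export factor, was at 116 and 104 CPM in LSK total RNA, 106 and 40.2 in LSK polysomal RNA, 132 and 104 in MP total RNA and 212, 179 and 119 in MP polysomal RNA, and Rrp12, another export factor, at 109 and 17.7 CPM in LSK total RNA, 29.9 and 5.23 in LSK polysomal RNA, 160.2 and 112 in MP total RNA and 94.0, 205 and 66.1 in MP polysomal RNA. For RNA polymerase I, Polr1a, the largest subunit, was at 147 and 31.5 CPM in LSK total RNA, 145 and 77.0 in LSK polysomal RNA, 159 and 121 in MP total RNA and 239, 340.5 and 229 in MP polysomal RNA, and Polr1b, the second largest, at 189 and 53.1 CPM in LSK total RNA, 158 and 304 in LSK polysomal RNA, 256 and 196 in MP total RNA and 238, 450.4 and 366 in MP polysomal RNA. Tcof1, the treacle protein that aids transcription of the ribosomal RNA genes, was at 305 and 71.7 CPM in LSK total RNA, 207 and 494 in LSK polysomal RNA, 291 and 187 in MP total RNA and 248, 428 and 401 in MP polysomal RNA. The 3 had their lowest level in LSK total 2.

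**Figure D2:**
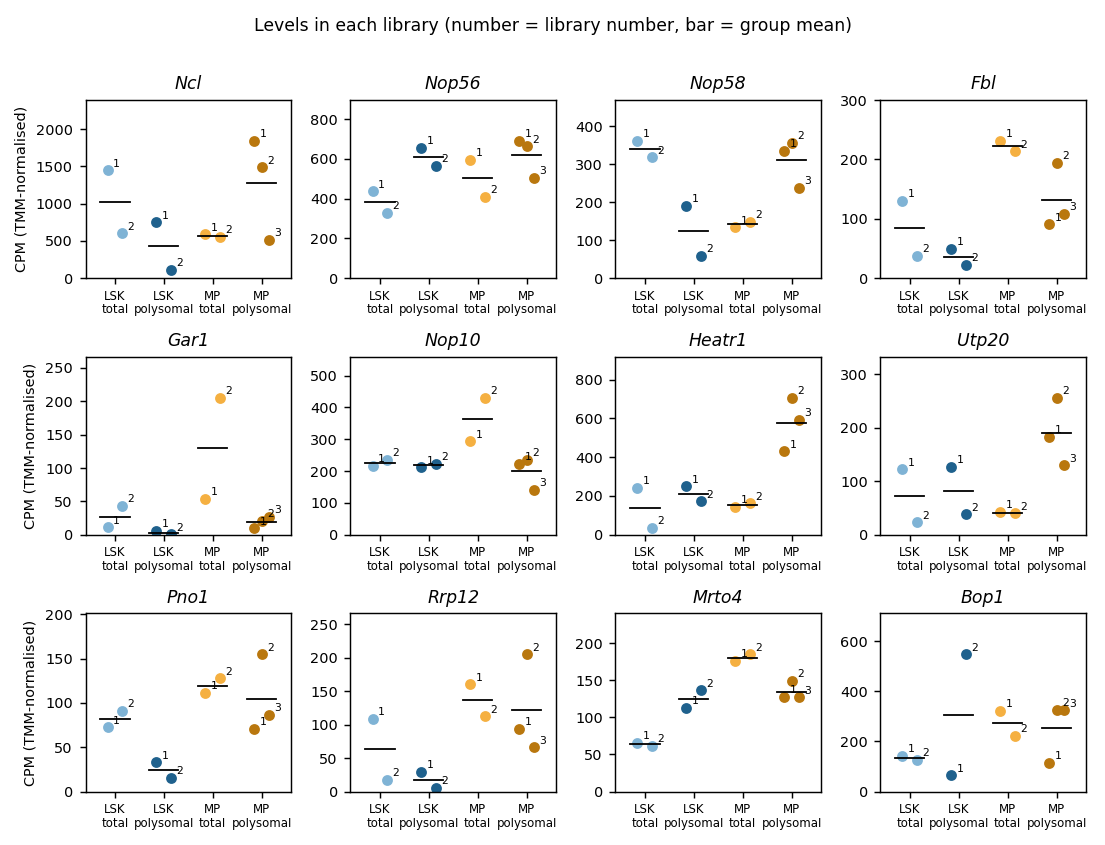
CPM (linear axis from 0) of 12 genes in each library. Points are libraries with their number, and bars are group means. Heatr1 and Utp20 are highest in the 3 MP polysomal libraries, Gar1 has 1 high library (MP total 2, 205 CPM), and Bop1 has LSK polysomal 2 at 547 CPM above all others.

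The first comparison set MP over LSK in total RNA, which asks how the steady-state levels of the assembly genes differ between progenitors and stem cells. Of the 51 genes, 39 had a positive log2 change (49.8% of all genes) and 12 a negative one (50.2%), with a median of 0.45, a lowest of −2.24 and a highest of 2.26, and over all 16426 genes the median was −0.01. By edgeR's quasi-likelihood test with Benjamini-Hochberg adjustment, 0 passed as higher, where 0.274% of all genes did, and 0 as lower, where 0.816% did. At an unadjusted p under 0.05, 2 were higher (4.52% of all genes) and 1 lower (12.5%). DESeq2 called 2 of the 51, Mrto4 higher (2.3% of all genes) and Nol8 lower (6.66%), and limma on the authors' normalized table called 0. The libraries of the groups did not overlap for 22 genes higher in MP (22.8% of all genes) and 9 lower (28.5%).

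Mrto4, a factor of the large-subunit stalk, was at 66.1 and 62.1 CPM in LSK and 176 and 185 CPM in MP total RNA, a log2 change of 1.49 (SE 0.44, adjusted p = 0.123). Each pair of libraries was tight and the pairs lay far apart. Nol8 was at 51.2 and 29.0 CPM in LSK and 9.59 and 7.37 CPM in MP, a log2 change of −2.24 (SE 0.68, adjusted p = 0.136). Gar1 had a log2 change of 2.26 (SE 1.09, adjusted p = 0.335) and Rrs1 a log2 change of 1.62 (SE 1.54, adjusted p = 0.655). Without MP total 2, Rrs1 was at −1.23. Nop58 stood at the other end, with −1.27 (SE 0.58, adjusted p = 0.307), and beside it Ncl, with −0.85 (SE 0.87, adjusted p = 0.685). For Fbl the change was 1.40 (SE 0.70, adjusted p = 0.352) and for Dkc1 −0.74 (SE 0.67, adjusted p = 0.641), so the catalytic proteins of the 2 snoRNP families had opposite signs, neither past the threshold. By role, medians were 0.91 for the 4 H/ACA genes, 0.60 for the 4 RNA polymerase I genes, which were all positive, 0.50 for the 17 large-subunit genes, 0.39 for the 3 box C/D genes and 0.25 for the 14 processome genes. Among the other assembly genes, described further below, medians were −0.06 for 12 RNA polymerase I genes and 0.47 for 10 snoRNP assembly genes. They were 0.38 for 40 large-subunit genes and 0.50 for 34 processome genes. The median over the 51 went to 0.12 without LSK total 2, the library with the lowest level of Heatr1, Polr1a and Tcof1, and to 0.10 with library totals alone, where the median of all genes was −0.36, and 30 genes were positive under either. LSK total 2 held B cell genes at 4270 CPM and LSK total 1 at 597 CPM, and the part of such cells was not tested. Without both MP libraries numbered 1, in which the neutrophil genes were high, the median was 0.39.

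Within the list, the change between populations in total RNA followed base composition. Across the 51 genes, the log2 change had a Pearson correlation of 0.801 with the GC content of the coding sequence, as a description over genes that share their 4 libraries. Over 12787 genes with a coding sequence it was 0.225. The 17 genes of lowest GC content (40.5% to 47.2%) had a median change of −0.36, with 7 positive, and the 17 of highest GC content (53.0% to 64.2%) a median of 1.06, with 17 positive. Nop58 and Nol8, at the low end, and Gar1, Rrs1 and Noc4l, at the high end, lie along it. The correlation was 0.565 without MP total 2 and 0.597 without LSK total 1, the lowest values when a library was left out. With the trend of each library on coding GC content and length over all genes removed, an alternative chosen after seeing the data, the correlation was 0.434, the median change 0.60, and Nop58 turned to 0.18. Library by library, the 51 genes' deviations correlated with GC content at −0.535 and −0.0515 in LSK total 1 and 2 and at 0.539 and 0.649 in MP total 1 and 2. The polysomal libraries did not divide by population, with −0.679 and 0.286 in LSK polysomal 1 and 2. For MP polysomal 1, 2 and 3 the values were −0.679, −0.237 and 0.282. In polysomal RNA the change between populations had a correlation of −0.0399 with GC content over the 51 genes, with 0.544 without LSK polysomal 2 and −0.286 without LSK polysomal 1. What lies behind these values was not tested.

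**Figure D3:**
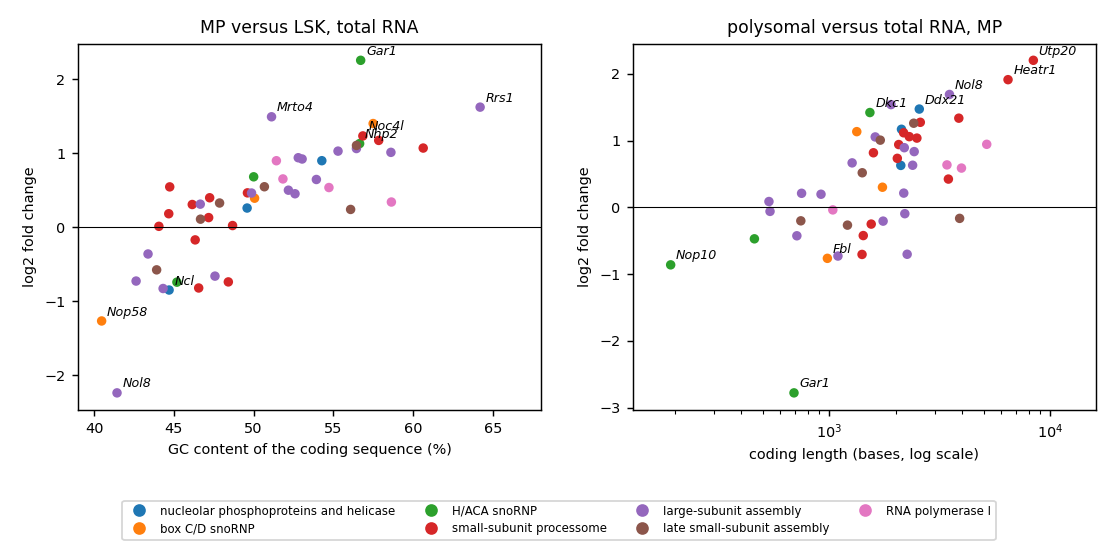
Left, log2 fold change of MP over LSK in total RNA against the GC content of the coding sequence (%), and right, that of polysomal over total RNA in MP against coding length (bases, log scale). Each point is 1 of the 51 genes, coloured by role. On the left Nop58 and Nol8 lie low at 40.5% and 41.4% GC and Gar1 and Rrs1 high, and on the right Utp20 and Heatr1 lie high and Nop10 and Gar1 low.

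Polysomal RNA of MP was then compared with that of LSK, which concerns the messages held in fraction 7 of the gradient. Here 45 of the 51 genes had a positive change (48.6% of all genes) and 6 a negative one (51%), with a median of 0.94, a lowest of −0.35 and a highest of 2.79, against a median of −0.03 over all genes. By edgeR's test 0 passed as higher (0.524% of all genes) and 0 as lower (2.83%), and the lowest adjusted p was 0.0831. Before adjustment, 11 genes were higher at p under 0.05 (6.09% of all genes) and 0 lower (11.7%). DESeq2 called 5 as higher (3.22%), Pno1, Wdr43, Rrp9, Rrp12 and Utp3, and 0 as lower (6.67%), and limma on the authors' normalized table called 0. The groups did not overlap for 19 genes higher in MP (15% of all genes) and 1 lower, Nip7 (17.4%).

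The largest changes were those of Rrp12, Gar1, Bms1 and Pno1. Pno1 had 33.2 and 15.4 CPM in LSK and 70.8, 155 and 86.5 CPM in MP polysomal RNA, a log2 change of 2.10 (SE 0.57, adjusted p = 0.0831). Rrp12 had 29.9 and 5.23 CPM in LSK and 94.0, 205 and 66.1 CPM in MP, a log2 change of 2.79 (SE 1.01, adjusted p = 0.176). All 3 MP libraries were above both LSK libraries for Pno1 and Rrp12, although the MP libraries differed among themselves by more than 2-fold. Wdr43, a processome protein whose E-box is shown above, had 121 and 45.8 CPM in LSK and 177, 370.1 and 325 CPM in MP, a log2 change of 1.80 (SE 0.56, adjusted p = 0.119). Changes of the other genes with the smallest p were 1.64 (SE 0.56, adjusted p = 0.152) for Rrp9, which binds the U3 snoRNA, and 1.88 (SE 0.68, adjusted p = 0.174) for Fbl. Gar1 had a log2 change of 2.54 (SE 1.06, adjusted p = 0.247) and Bms1 a log2 change of 2.14 (SE 0.91, adjusted p = 0.254). All 6 late small-subunit genes were positive, with a median of 1.07, as were the 3 box C/D genes (median 1.32) and the nucleolar genes Ncl, Nolc1 and Ddx21 (median 1.08). Of the 14 processome genes 13 were positive (median 1.18), and of the 17 large-subunit genes 13 (median 0.28). Among the other assembly genes, described further below, this order was reversed. There 36 of 40 large-subunit genes were positive (median 0.82) and 26 of 34 processome genes (median 0.41). The other late assembly and export genes had a median of 0.48 and the other snoRNP assembly genes −0.16. At the other end were Nip7 at −0.35 (SE 0.40, adjusted p = 0.723), Nop16 at −0.27 (SE 0.39, adjusted p = 0.788) and Bop1 at −0.27 (SE 0.78, adjusted p = 0.906).

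The size of these differences rested on the LSK polysomal libraries, which stood apart from each other. Without LSK polysomal 2 the median over the 51 genes was 0.60 and without LSK polysomal 1 it was 1.92, with 44 and 42 genes positive. Without LSK polysomal 1, 3 genes passed: Pes1 at 4.74, Gnl2 at 4.63 and Utp3 at 3.61, where 0.804% of all genes passed as higher. Each was set against the single library LSK polysomal 2, in which Pes1 was at 10.7 CPM and Gnl2 at 7.06 CPM. Bop1 turned to 1.96 without LSK polysomal 2. With the trend on coding GC content and length removed, the median was 0.65 and 1 gene passed (0.998% of all genes as higher), Pno1 at 2.20 (adjusted p = 0.0481). With no filter on low counts 4 passed as higher (1.21% of all genes), Gar1, Bms1, Rrp12 and Pno1. B cell marker levels also differed between the LSK polysomal libraries, at 868 and 3278 CPM in LSK polysomal 1 and 2, and the part of such cells was not tested. Over 12787 genes, deviations in LSK polysomal 1 and 2 correlated with coding GC content at −0.359 and 0.483, and the part of base composition was not tested. Without both MP libraries numbered 1, those with high neutrophil genes, the median was 0.75 and 45 genes were positive.

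**Figure D4:**
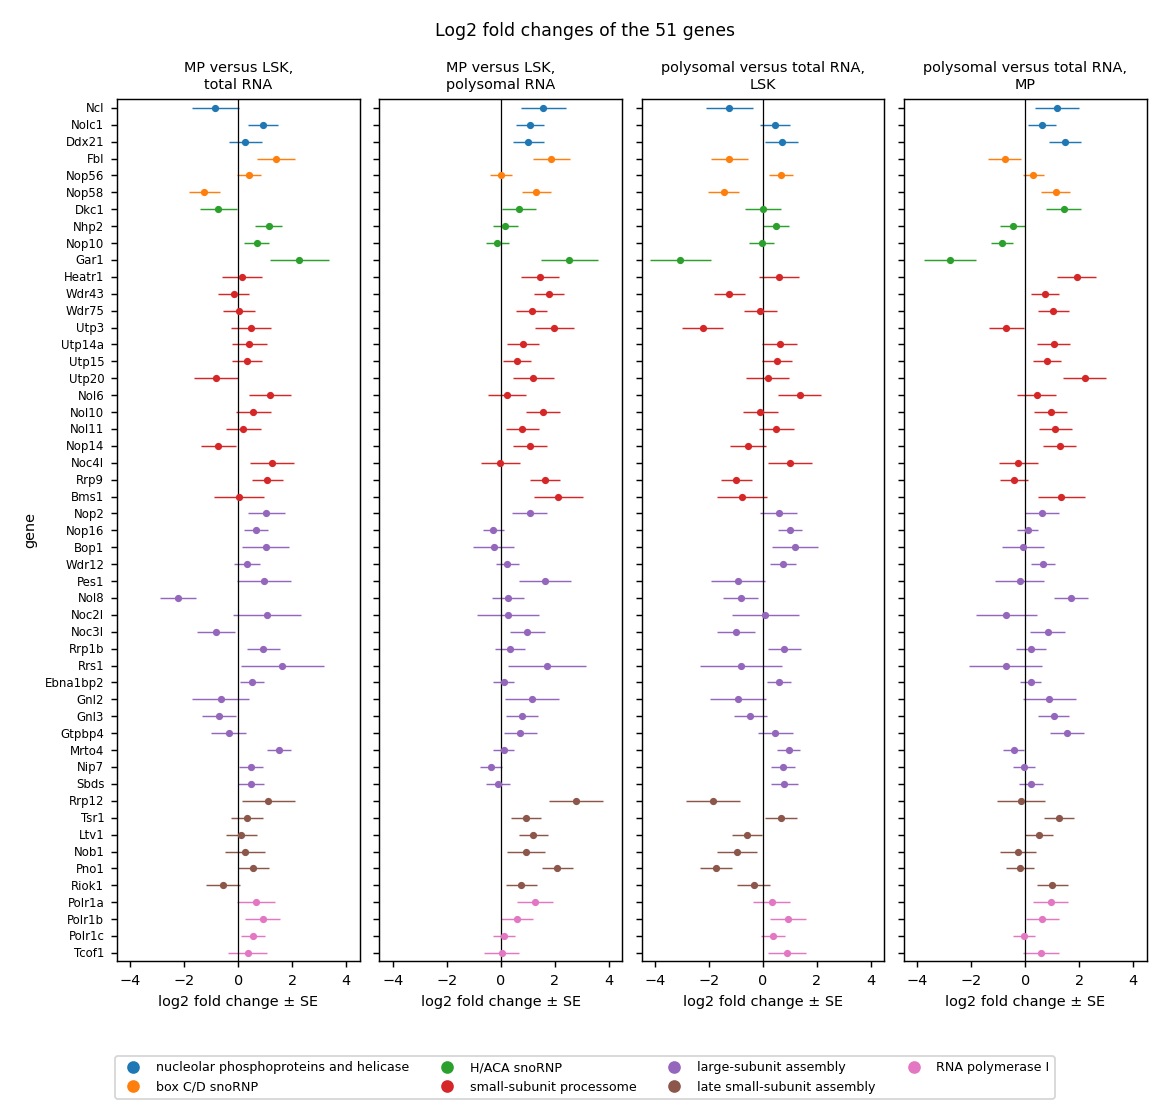
Log2 fold changes (points) with their standard errors (bars) of the 51 genes in 4 comparisons, in the order of their roles and coloured by role. In the panel of MP over LSK polysomal RNA 45 points lie right of 0, and in the panel of LSK polysomal over total RNA they lie on both sides, with 28 right of 0 and Gar1 at −3.06.

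The third comparison set polysomal over total RNA within LSK, which compares the share of each message in fraction 7 with its share in the lysate. Messages in other polysome fractions do not enter it, so it does not measure how many ribosomes a message carries. The 51 genes went both ways: 28 had a positive change (50.8% of all genes) and 23 a negative one (49.1%), with a median of 0.18, against 0.02 over all genes. EdgeR called 0 as higher and 0 as lower, as it did over all 16426 genes (0% in each direction). At an unadjusted p under 0.05, 1 was higher (3.56% of all genes) and 4 lower (8.5%). DESeq2 called 0 of the 51 (0.225% of all genes higher and 2.41% lower), as did limma on the authors' normalized table. The groups did not overlap for 8 genes higher (16.2% of all genes) and 7 lower in polysomal RNA (20.6%). Gar1 had 11.2 and 43.0 CPM in total and 5.78 and 0.706 CPM in polysomal RNA, a log2 change of −3.06 (SE 1.13, adjusted p = 0.32), and passed as lower with no filter on low counts (1.51% of all genes). Utp3 had a log2 change of −2.23 (SE 0.76, adjusted p = 0.285) and Rrp12 a log2 change of −1.85 (SE 1.01, adjusted p = 0.505). Pno1 and Nop58 were also lower in both polysomal libraries than in both total libraries, at −1.75 (SE 0.59, adjusted p = 0.284) and −1.45 (SE 0.58, adjusted p = 0.362). Nop16, a large-subunit factor, was at 127 and 128 CPM in total and 219 and 294 CPM in polysomal RNA, a log2 change of 1.01 (SE 0.44, adjusted p = 0.402), with Nol6 at 1.36 (SE 0.79, adjusted p = 0.53) and Bop1 at 1.18 (SE 0.87, adjusted p = 0.625).

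The direction of this comparison was not settled by the data. The median over the 51 genes was −0.71 without LSK polysomal 1, 0.63 without LSK total 1, −0.08 with library totals alone (where all genes had a median of −0.36) and −0.01 without both LSK libraries numbered 2. Bop1 turned to −1.02 without LSK polysomal 2, and Rrp12 to 0.01 without LSK total 1. By role, the 3 box C/D genes had a median of −1.24 and the 6 late small-subunit genes −0.77, and the 17 large-subunit genes 0.59 and the 4 RNA polymerase I genes 0.64, these 4 all positive. The other assembly genes, described further below, did not divide in this way. Medians there were 0.30 for 14 late assembly and export genes and 0.54 for 10 snoRNP assembly genes. They were 0.10 for 40 large-subunit genes and 0.21 for 12 RNA polymerase I genes. The 79 ribosomal protein genes had a median of −0.50, with 67 negative.

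The fourth comparison set polysomal over total RNA within MP. Of the 51 genes 34 had a positive change (45.3% of all genes) and 17 a negative one (54.2%), with a median of 0.63 against −0.08 over all genes, and the ribosomal protein genes went the other way, with a median of −0.90 and 77 of 79 negative. EdgeR called 0 of the 51 in either direction, and 0% of all genes. Unadjusted p-values under 0.05 were found for 6 genes as higher (4% of all genes) and 1 as lower (3.57%). DESeq2 called 0 of the 51 (0.183% of all genes higher and 0% lower), and limma on the authors' table likewise called none of them. The groups did not overlap for 22 genes higher in polysomal RNA (16.3% of all genes) and 6 lower (16.4%). Utp20 had 42.5 and 39.9 CPM in total and 183, 256 and 129.9 CPM in polysomal RNA, a log2 change of 2.20 (SE 0.80, adjusted p = 0.656). Heatr1 had 144 and 162 CPM in total and 431, 706 and 593 CPM in polysomal RNA, a log2 change of 1.91 (SE 0.72, adjusted p = 0.656). In both genes the lowest polysomal library was above the highest total library by more than 2-fold. Nol8 had a log2 change of 1.69 (SE 0.63, adjusted p = 0.656), and the helicase gene Ddx21 a log2 change of 1.47 (SE 0.58, adjusted p = 0.656). Gar1 went from 54.2 and 205 to 9.43, 20.5 and 26.8 CPM, a log2 change of −2.78 (SE 0.96, adjusted p = 0.656), Nop10 had a log2 change of −0.86 (SE 0.41, adjusted p = 0.675) and Fbl a log2 change of −0.76 (SE 0.62, adjusted p = 0.839). By role, the nucleolar genes had a median of 1.17 and the processome genes 0.99, with 11 of 14 positive, and the H/ACA genes −0.67, with 3 of 4 negative. Of 34 other processome genes, described further below, 21 were positive (median 0.13). The 10 other snoRNP assembly genes had a median of 0.06. The median over the 51 was 0.63 also without both MP libraries numbered 1, in which neutrophil genes were high.

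Within the list, the change between fractions in MP followed both the length and the GC content of the coding sequence. It correlated with log2 coding length over the 51 genes at r = 0.642 (Spearman 0.623) and over 12787 genes at 0.333 (Spearman 0.394), and with coding GC content at −0.683 and −0.402, all given as descriptions over genes that share 5 libraries. The 17 genes with the shortest coding sequences (192 to 1410 bases) had a median change of −0.20, with 6 positive. The 17 with the longest (2250 to 8367 bases) had a median of 1.04, with 15 positive. By GC content, the 17 lowest genes (40.5% to 47.2%) had a median of 1.06, with 17 positive. The 17 highest (53.0% to 64.2%) had a median of −0.16, with 6 positive. The parts of length and of GC content were not tested apart. Left-out libraries moved the correlation with length between 0.537 and 0.727. With the trend on coding GC content and length over all genes removed it was 0.335, and the median change was 0.22. In LSK the correlation with length was 0.0912 over the 51 genes and 0.0795 over all genes, with 0.404 over the 51 without LSK total 1 and −0.146 without LSK total 2. Correlations with length also differed between libraries of 1 group: the 51 genes' deviations correlated with length at −0.499 in LSK total 2 and 0.294 in LSK total 1. What lies behind this difference was not tested.

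Whether the ratio of polysomal to total RNA differs between populations was tested by the interaction, MP minus LSK. The median over the 51 genes was 0.61, with 34 positive (46.9% of all genes) and 17 negative (53.1%), against −0.10 over all genes. EdgeR called 0 of the 51 as higher or lower (0% of all genes in each direction, with a lowest adjusted p of 0.877), and unadjusted p-values under 0.05 were found for 3 genes as higher (4.74% of all genes) and 1 as lower (0.554%). DESeq2 called 0 of the 51 (0.00609% of all genes higher and 0% lower), as did limma on the authors' normalized table. Nop58 had the smallest p: its ratio was below 1 in LSK and above 1 in MP, with log2 changes of −1.45 and 1.14, a difference of 2.59 (SE 0.80, adjusted p = 0.877). Nol8 had 2.52 (SE 0.91, adjusted p = 0.877) and Ncl 2.42 (SE 1.20, adjusted p = 0.877). At the other end Mrto4 had −1.38 (SE 0.58, adjusted p = 0.877), then Bop1 at −1.28 (SE 1.15, adjusted p = 0.884) and Noc4l at −1.24 (SE 1.09, adjusted p = 0.884). Bop1 and Noc4l turned to 0.94 and 0.45 without LSK polysomal 2. Leaving out LSK polysomal 1 gave a median of 1.79 over the 51, leaving out LSK total 1 gave 0.07, and it was 0.19 with the trend on GC content and length removed. The 6 late small-subunit genes were all positive (median 1.23), and 12 of 14 processome genes (median 1.09), while the 4 RNA polymerase I genes had a median of −0.30. The other assembly genes, described below, did not show this for the first 2 roles. There 15 of 34 processome genes were positive (median −0.10) and 7 of 14 late assembly and export genes (median −0.05). The other RNA polymerase I genes had a median of −0.32.

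The rest of the pathway was read from a list of other assembly genes, which holds further processome, large-subunit, export, snoRNP, RNA polymerase I, exosome and RNase MRP genes, 133 of them tested. EdgeR called 0 of the 133 in each of the 5 comparisons. Their median changes were 0.37 for MP over LSK in total RNA, with 103 positive, and 0.37 in polysomal RNA, with 94 positive. They were 0.31 for polysomal over total RNA in LSK and 0.16 in MP, and −0.07 for the interaction. Unadjusted p-values under 0.05 were found between populations for 4 of the 133 as higher and 0 as lower in total RNA (4.52% and 12.5% of all genes) and for 4 and 0 in polysomal RNA (6.09% and 11.7%). Between fractions they were found for 7 and 2 in LSK (3.56% and 8.5%) and for 8 and 1 in MP (4% and 3.57%), and for the interaction for 2 and 1 (4.74% and 0.554%). The smallest p between populations in polysomal RNA was that of Lyar, a nucleolar zinc finger protein gene, at 1.90 (SE 0.53, adjusted p = 0.0882), with 29.5 and 26.5 CPM in LSK and 60.6, 132 and 120.4 CPM in MP. Mdn1, which encodes a very large ATPase that strips factors from the large subunit, had the smallest p between fractions in MP, at 2.78 (SE 0.86, adjusted p = 0.656).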

How the data were processed

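The authors deposited whole-number read counts per gene and a table of normalized expression on a log2-like scale, whose transformation is not given, both covering the 9 libraries. Per the submitters' processing notes, bcl2fastq, STAR, featureCounts and DESeq2 were used with mm10 (GRCm38). Tool versions, gene annotation and strandedness of counting are not stated there. Libraries were grouped by population and fraction from the labels. Gene names were joined to GENCODE M21 and to RefSeq promoters by symbol.

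The deposited counts were filtered with filterByExpr (minimum count 10, minimum total 15), scaled by TMM and fitted over all 9 libraries with 1 mean per group in edgeR 4.0.16 (R 4.3.3), with two-sided quasi-likelihood tests, Benjamini-Hochberg adjustment over 16426 genes and a threshold of 0.05. The median biological coefficient of variation was 0.558, which limits what groups of 2 and 3 can show. The scripts were tested on simulated data. DESeq2 1.42.0 and limma 3.58.1 (on the authors' log2 table) were alternatives.

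The members and lists were chosen with earlier results of these data known. Values per library were given for anchor genes of each role and for the 3 genes at each end of each comparison with a mean of at least 10 CPM. Other genes named were chosen after their values were seen. Whether numbers in the titles pair libraries was not settled, as the closing section gives.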

Additional observations from a re-analysis of the deposited data

How the results depend on the processing

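No count of members past the threshold differed from 0 except these: DESeq2 gave 2 between populations in total RNA and 5 in polysomal RNA. No filter on low counts gave 4 in polysomal RNA and 1 between fractions in LSK, and removal of the trend on coding GC content and length, chosen after seeing the data, gave 1 in polysomal RNA. Leaving out single libraries gave 0 to 3 there and 0 in the other comparisons. Median changes over the 51 genes under these omissions ran from 0.116 to 0.729 (total RNA, populations), 0.596 to 1.92 (polysomal RNA, populations), −0.71 to 0.625 (fractions, LSK), 0.48 to 0.785 (fractions, MP) and 0.0724 to 1.79 (interaction). The interaction median was 0.187 with the trend removed. Over the alternatives, 0 to 9 of the 51 genes turned sign in total RNA and 0 to 5 in polysomal RNA between populations, 0 to 13 between fractions in LSK and 0 to 7 in MP, and 0 to 14 for the interaction. In total RNA 39 were positive, and 30 with library totals alone or without LSK total 2 and 45 with the trend removed. Among the 3 genes at each end of a comparison, those that turned between populations were Nop58 in total RNA, at 0.18 with the trend removed, Rrs1 in total RNA, at −1.23 without MP total 2 and 4.73 without LSK total 2, and Nop16 in polysomal RNA, at 0.011 with the trend removed. Bop1 in polysomal RNA was 1.96 without both LSK libraries numbered 2, 0.125 without both MP libraries numbered 1, 0.201 in limma, 0.328 with the trend removed, and from −0.969 to 1.96 over single omissions (0.106 without MP polysomal 1). Between fractions in LSK, without both LSK libraries numbered 2, Bop1 was −1.11 and Nol6 −0.431, and single omissions gave −1.02 to 1.9 for Bop1 and −3.75 to 0.0107 for Rrp12. For the interaction, Bop1 was 1.03 and Noc4l 0.299 without both, and single omissions gave −1.93 to 0.944 and −1.82 to 0.451. The causes were not tested. Over all genes, the calls between populations in total RNA were 45 higher and 134 lower, and 43 and 285 with library totals alone, 325 and 881 with no filter, 377 and 1094 in DESeq2, 138 and 712 in limma, 116 and 315 with the trend removed, and 0 with only the groups compared or without both MP libraries numbered 1. In polysomal RNA they were 86 and 465, and 379 and 1179 with no filter, 529 and 1095 in DESeq2, 10 and 187 without both LSK libraries numbered 2, 38 and 266 with only the groups compared, and 0 without both MP libraries numbered 1. Between fractions in LSK the 0 calls became 73 and 474 with no filter, 37 and 396 in DESeq2 and 8 and 478 in limma, in MP 6 and 16 with no filter and 30 and 0 in DESeq2, and for the interaction 2 and 2 and 1 and 0. Single omissions gave 0 to 446 calls in total RNA and 0 to 516 in polysomal RNA.

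Deviations of same-numbered total and polysomal libraries correlated at 0.48 in LSK, at 0.505 for MP number 1 and at −0.522 for MP number 2, and those of MP total 2 and MP polysomal 3 at 0.703. With 2 total libraries in a population these values mirror each other by construction. Neutrophil genes were high in both MP libraries numbered 1 and B cell genes in both LSK libraries numbered 2. Since the labels do not say that a number marks a shared source and not every same-numbered pair correlated, the block was not made the main fit, and pairing was not settled. With the replicate number as a block 0 of the 51 passed in all 5 comparisons, and the medians were 0.486, 1.17, 0.305, 0.653 and 0.701. Calls over all genes became 165 higher and 405 lower in total RNA and 112 and 306 in polysomal RNA. With the block within each population the medians were 0.213 in LSK and 0.555 in MP between fractions, with 0.517 for the interaction, and 0 of the 51 passed.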
